A study of Homo sapiens with 18 samples.

Results

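WM164 and SKMel28 are BRAF-mutant human melanoma cell lines, and the control cells of both lines were compared here before the transcription factor MAFG was raised. Each line had been given GFP by lentivirus, expressed from an EF1α promoter on a vector with a blasticidin resistance gene, and 3 RNA-seq libraries were made per line. These 6 libraries, chosen by line and vector, are part of a series of 18, which also holds MAFG-overexpressing WM164 and SKMel28 cells and the same pair of conditions in A375 cells. All 6 libraries came from cells that carried GFP, the same backbone and the same selection marker, grown in the same medium, so the line was the only labelled difference between the groups. The labels do not say whether the libraries of a line came from separate cultures. The p-values therefore measure the spread between these libraries, and what belongs to a line cannot be told apart from what belongs to its stock or culture.

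Melanocytes and melanoma cells of the melanocytic state depend on SOX10 and MITF, transcription factors that hold the lineage and switch on the genes for melanin synthesis. Melanin is made in melanosomes, lysosome-related organelles with an amyloid-like matrix of PMEL, by the enzymes TYR, TYRP1 and DCT, and ion carriers such as OCA2 set the conditions in which tyrosinase works. Melanoma cells can leave this state for a neural crest-like or a mesenchymal-like state, in which other receptors, adhesion molecules and matrix genes are used.

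Both lines carried the melanocyte lineage. SOX10, MITF, PMEL, MLANA, TYR, DCT and the glial and melanocytic marker S100B were all expressed in all 6 libraries, the lowest being TYR at 121 CPM in a WM164 library. CPM is the count of a gene relative to the size of its library, after that size was scaled by TMM, a normalization that assumes most genes do not differ. Among the markers of other cell types, 5 of 8 immune genes, 2 of 7 fibroblast genes, 4 of 7 keratinocyte genes and 3 of 6 endothelial genes had no library above 3 counts, PTPRC, CD3E, KRT5 and PECAM1 not passing the count filter. Exceptions of some level included CD68, a lysosomal protein, at 134, 124 and 118 CPM in WM164 and at 353, 301 and 378 CPM in SKMel28 libraries. Another was the keratin KRT10, at 11.7 ± 2.32 and 24.2 ± 1.78 CPM (SD, n = 3). The summed level of the fibroblast list was 22.9 to 23.5 CPM in WM164 and 11 to 12.6 CPM in SKMel28 libraries, and that of the endothelial list at most 2.55 CPM. In bulk RNA, a lower share of cells with a transcript and less transcript per cell cannot be told apart.

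The pigment genes that differed most between the lines were TYRP1 and OCA2, and they are shown with the 250 bases before the start of TYR, TYRP1, GPR143 and OCA2, because TYR and TYRP1 hold the same MITF-type element and yet stood apart in level. The sequences are RefSeq promoters on GRCh38.p14, printed 5′ to 3′ on the strand of the gene, and capitals mark TCATGTG, the core of the element known as the M-box, or its reverse complement CACATGA. TYR lies on the plus strand (chr11:89177625-89177874), TYRP1 on the plus strand (chr9:12693135-12693384), GPR143 on the minus strand (chrX:9765848-9766097) and OCA2 on the minus strand (chr15:28099316-28099565).
TYR: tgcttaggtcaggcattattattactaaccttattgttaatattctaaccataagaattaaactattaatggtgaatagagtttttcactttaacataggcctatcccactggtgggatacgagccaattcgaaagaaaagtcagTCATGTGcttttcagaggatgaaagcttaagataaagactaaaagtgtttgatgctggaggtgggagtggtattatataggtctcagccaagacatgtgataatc
TYRP1: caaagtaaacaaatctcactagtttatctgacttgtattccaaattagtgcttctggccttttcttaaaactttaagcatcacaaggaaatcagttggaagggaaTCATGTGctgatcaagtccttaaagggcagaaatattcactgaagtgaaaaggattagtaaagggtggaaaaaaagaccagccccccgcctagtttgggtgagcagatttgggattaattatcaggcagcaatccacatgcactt
GPR143: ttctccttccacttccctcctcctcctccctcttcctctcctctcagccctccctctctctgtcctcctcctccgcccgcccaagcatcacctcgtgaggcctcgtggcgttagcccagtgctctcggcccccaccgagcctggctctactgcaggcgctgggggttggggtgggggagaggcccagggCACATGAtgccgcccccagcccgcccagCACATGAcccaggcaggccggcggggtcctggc
OCA2: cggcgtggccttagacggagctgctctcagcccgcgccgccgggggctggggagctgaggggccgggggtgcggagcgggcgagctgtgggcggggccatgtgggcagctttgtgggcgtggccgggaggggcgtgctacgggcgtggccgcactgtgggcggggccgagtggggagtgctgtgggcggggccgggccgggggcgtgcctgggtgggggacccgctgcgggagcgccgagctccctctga

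The element began 105 bases before the start of TYR and 145 bases before that of TYRP1, and the GPR143 window held it at 61 and at 33 bases before the start, both on the reverse strand. Searched on both strands, TCATGTG was in 2.55% of 27195 RefSeq promoters of this length, in 1.41% of the promoters of tested genes and in 7 of the 26 promoters found for the pigment and melanosome lists, which is 26.9%. The shorter CATGTG was in 5.64% of the promoters of tested genes and in 42.3% of those of the pigment and melanosome lists. OCA2 had no TCATGTG in this window but held CATGTG. Its window held 28 CG dinucleotides, against 2 in that of TYR and 1 in that of TYRP1. These matches describe the sequence only.

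TYRP1 (ENSG00000107165.12, chromosome 9 from 12685439 to 12710285 of GRCh38) was at 0.0346, 0 and 0.19 CPM in the WM164 libraries and at 56.2, 60 and 50.6 CPM in the SKMel28 libraries. OCA2 (ENSG00000104044.16, chromosome 15 from 27754875 to 28099315), an ion carrier of the melanosome membrane, was at 0.0346, 0.353 and 0 CPM in WM164 and at 59.6, 68.6 and 61.3 CPM in SKMel28. Both genes were thus near 0 in every WM164 library and above 50 CPM in every SKMel28 library. From the pooled counts, TYRP1 was 793 times as high in SKMel28 (6 against 4547 counts, exact 95% counting interval 364 to 2161) and OCA2 450 times (12 against 5159 counts, interval 257 to 871). The adjusted p was 9.80e-14 and 4.95e-13 (edgeR's quasi-likelihood test, Benjamini-Hochberg adjustment).

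A gene was called when the adjusted p of edgeR's quasi-likelihood test was 0.05 or less and the absolute log2 fold change was above 1, that is, above 2-fold. Of 16155 tested genes, 5190 (32.1%) were called, 2806 (17.4%) higher in WM164 and 2384 (14.8%) higher in SKMel28. The other pigment genes stood closer together than TYRP1 and OCA2. TYR, the rate-limiting enzyme of melanin synthesis, was at 121, 148 and 141 CPM in WM164 and at 166, 165 and 159 CPM in SKMel28, which did not overlap but differed by only 0.26 on the log2 scale (95% interval of the difference, WM164 minus SKMel28, -0.41 to -0.10). DCT, the dopachrome tautomerase that works beside TYRP1, went the other way, at 1260, 1452 and 1343 CPM in WM164 and 662, 681 and 663 CPM in SKMel28, 2.02 times as high in WM164 (log2 fold change 1.02, SE 0.07, adjusted p = 3.03e-09). That call was not met without WM164 replicate 2 (0.97) or on the TPM scale described in the next paragraph. SLC45A2, a transporter needed for normal pigmentation, was at 56.1 ± 4.83 and 59.3 ± 2.69 CPM, with an interval of -0.24 to 0.08. Of the 9 tested genes of pigment enzymes and ion carriers, DCT was called higher in WM164, TYRP1 and OCA2 were called higher in SKMel28, and 6 were not called.

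**Figure D1:**
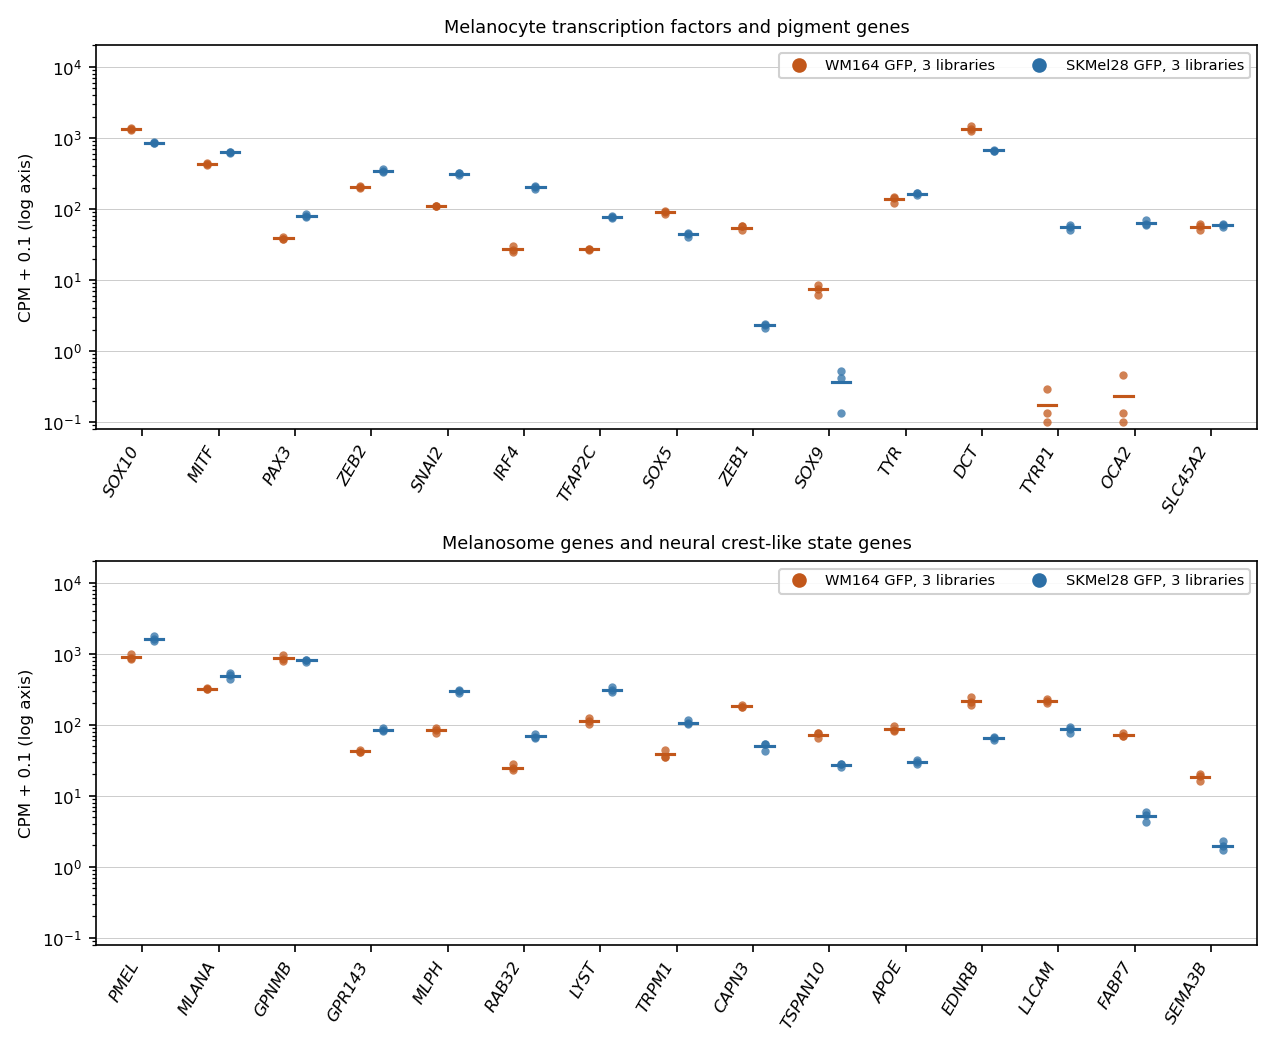
CPM + 0.1 on a log axis of melanocyte transcription factors, pigment genes, melanosome genes and neural crest-like state genes in the 3 WM164 GFP libraries (orange) and the 3 SKMel28 GFP libraries (blue), each point a library and each bar the mean of a line. TYRP1 and OCA2 sit at the bottom of the axis in WM164 only, while TYR, SLC45A2 and GPNMB are at nearly the same height in both lines.

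Among the 12973 tested protein-coding genes, 3882 were called. The difference was above 8-fold for 1471 genes, 776 of them higher in WM164. The libraries of the lines did not overlap for 11872 tested genes (73.5%), and 11277 (69.8%) passed the adjusted p alone. Library totals were 26910220 to 31645623 counts in WM164 and 20122172 to 30150646 in SKMel28, log2 fold changes had a median SE of 0.123, and replicate libraries correlated at 0.982 to 0.987 against 0.817 to 0.829 between lines (log CPM, Pearson). Mitochondrial genes took 27.1% to 27.4% of the counts in WM164 and 23.7% to 25.4% in SKMel28, and RN7SL1, the RNA of the signal recognition particle, 2.85% to 3.57% and 1.02% to 1.05%. On the deposited TPM scale, which divides by length and by the whole library, the median of all genes moved to -0.50 and only 18.5% of calls were higher in WM164, against 54.1% here. Values here are relative to the median gene on the CPM scale, which was at 0.002. Beside the genes for which it is said at their values, the calls of APOE, TSPAN10, SPARC, EPHA5, DMRTA1, CAAP1, FDXR, BMF, IFIT3, LIF, TRAF1, HOXB3, HOXB9, COL12A1, JAG1 and MDH2 were not met with log2(TPM + 1), while MITF, ZEB2, PMEL and MLANA became called as higher in SKMel28. GPNMB, FN1, VIM, MAFG, MYC and HLA-B, which were not called, had values below 0 there.

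**Figure D2:**
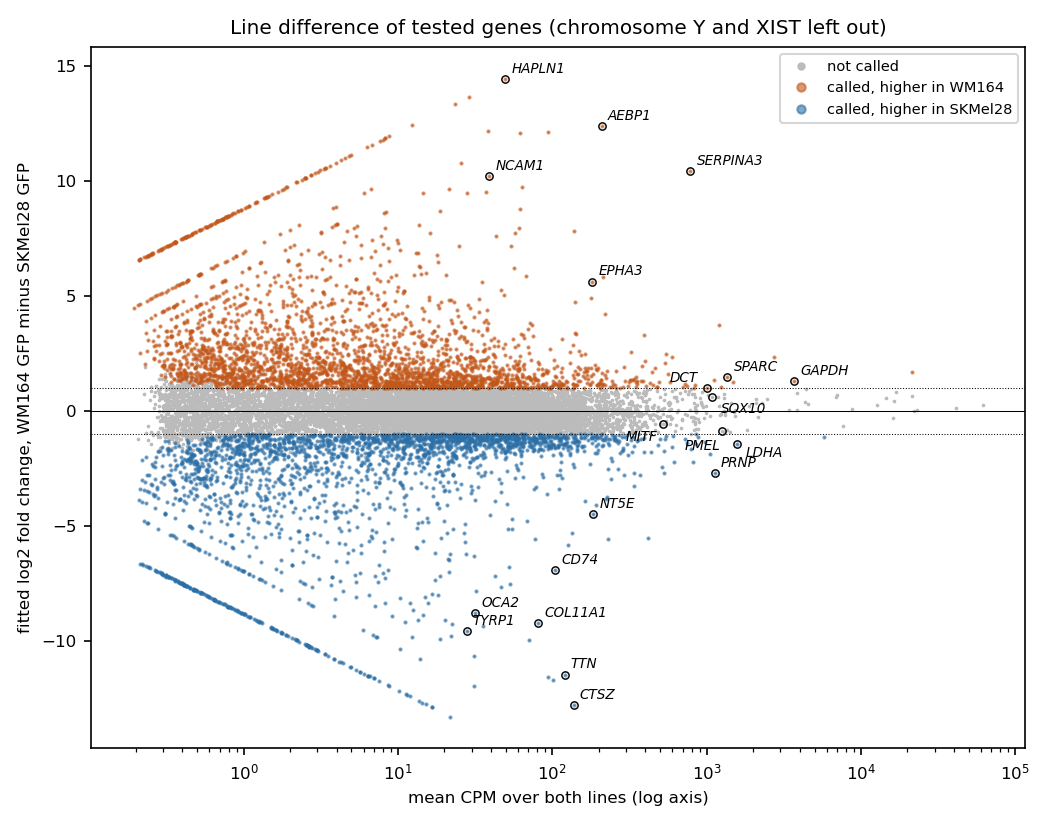
Fitted log2 fold change of WM164 GFP minus SKMel28 GFP (y axis) against the mean CPM over both lines (x axis, log scale), with a point per tested gene, called genes in color and dotted lines at the limits of -1 and 1. SOX10, MITF and PMEL lie inside the limits, whereas SERPINA3, AEBP1, CTSZ and TTN lie at the edges, and the slanted lines of points are genes with 0 counts in a line, whose fitted value depends on the prior count and is no bound.

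Among the transcription factors of the melanocyte lineage, SOX10 and MITF differed by less than 2-fold while others differed by far more. Of 19 tested factors, SOX5, SOX9, TFEB and ZEB1 were called higher in WM164 and IRF4, PAX3, SNAI2 and TFAP2C higher in SKMel28, and 11 were not called. SOX10 was at 1386, 1314 and 1274 CPM in WM164 and at 868, 856 and 850 CPM in SKMel28 (log2 difference 0.63, interval 0.49 to 0.76), and MITF at 409, 427 and 438 CPM in WM164 and at 632, 613 and 625 CPM in SKMel28 (-0.55, interval -0.68 to -0.43). The groups did not overlap for either gene, but both intervals stayed under 2-fold, with SOX10 above and MITF below 0. ZEB2, the EMT-type factor that goes with MITF in melanocytes, was at 202 ± 6.84 and 345 ± 14.6 CPM (-0.77, interval -0.90 to -0.64). MITF and ZEB2 passed both limits on the TPM scale, MITF at -1.17.

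ZEB1, the relative of ZEB2 that melanoma cells use in less differentiated states, was at 49.8, 56.5 and 56.7 CPM in WM164 and at 2.31, 2.22 and 2.03 CPM in SKMel28, 24.8 times as high in WM164 (log2 fold change 4.63, SE 0.11, adjusted p = 3.61e-14). SOX9, a neural crest factor often set against SOX10, was at 7.24 ± 1.16 CPM in WM164 and 0.26 ± 0.203 CPM in SKMel28, far below SOX10 in both. On the other side, IRF4, a pigmentation factor and MITF target, was at 24.7, 29.9 and 26.4 CPM in WM164 and at 192, 211 and 205 CPM in SKMel28, 7.50 times as high in SKMel28 (adjusted p = 8.24e-14). SNAI2, a neural crest factor required for melanocytes, was at 111 ± 0.463 and 310 ± 12.3 CPM, TFAP2C at 26.8 ± 0.618 and 77.2 ± 3 CPM, and PAX3, an activator of MITF, at 38.3 ± 1.60 and 80.3 ± 4.48 CPM. SOX5 was 2.06 times as high in WM164 (89.6 ± 3.30 against 43.6 ± 3.02 CPM), a call not met on the TPM scale.

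Among the called melanosome genes more were higher in SKMel28. Of 23 tested genes of the melanosome matrix, biogenesis and transport, 8 were called higher in SKMel28 and CAPN3, TSPAN10 and APOE higher in WM164, with a list median of -0.41. The matrix protein PMEL was at 857, 1001 and 846 CPM in WM164 and at 1755, 1626 and 1514 CPM in SKMel28 (-0.86, interval -1.03 to -0.68), and MLANA, its partner in early melanosomes, at 322 ± 9.20 and 491 ± 44.4 CPM (-0.61, interval -0.76 to -0.46), neither of them called on this scale. GPNMB, a PMEL relative, overlapped between the lines at 865 ± 89.7 and 805 ± 30.0 CPM (0.10, interval -0.06 to 0.26).

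MLPH, the melanophilin that links melanosomes through RAB27A to myosin, was at 84.8, 89.3 and 77.3 CPM in WM164 and at 280, 300 and 309 CPM in SKMel28, 3.54 times as high in SKMel28 (log2 fold change -1.82, SE 0.07, adjusted p = 4.24e-12). RAB32, a small GTPase that sorts cargo to melanosomes, was at 24.9 ± 2.44 and 68.2 ± 4.66 CPM, LYST, the lysosomal trafficking regulator lost in Chediak-Higashi syndrome, at 113 ± 11.6 and 311 ± 29.4 CPM, and the channel TRPM1 at 38.2 ± 5.43 and 107 ± 8.37 CPM. HPS3 and HPS5, subunits of a complex lost in Hermansky-Pudlak syndrome, were 2.44 and 2.11 times as high in SKMel28, and BLOC1S3 2.62 times. HPS5 fell under the limit with length and GC trends removed (-0.94). GPR143, the receptor of ocular albinism, was at 42.2 ± 1.72 and 84.9 ± 4.56 CPM, 2.01 times as high in SKMel28, but it fell under the limit without WM164 replicate 1 (-0.98), without WM164 replicate 3 (-0.99) and without SKMel28 replicate 1 (-0.95). In the opposite direction, the protease gene CAPN3 was at 181 ± 8.54 CPM in WM164 and 49.4 ± 6.10 CPM in SKMel28, the tetraspanin TSPAN10 at 72.3 ± 6.89 and 27.0 ± 1.76 CPM, and APOE, which nucleates PMEL fibrils, at 87.4 ± 6.69 and 29.7 ± 1.92 CPM. CAPN3 lies opposite ZNF106 and TSPAN10 opposite NPLOC4, and reads of the partner genes cannot be told apart if strand was not used in counting.

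WM164 cells had more of the transcripts of the neural crest-like state. Of 16 tested genes of that list, 9 were called higher in WM164 and SOX2 was the only one higher in SKMel28, with a median of 1.3 beside 0.002 for all genes. FABP7, the brain lipid-binding protein of glia, was at 69.4, 70.2 and 75.2 CPM in WM164 and at 4.14, 5.33 and 5.82 CPM in SKMel28, a 14.1-fold difference. EDNRB, the endothelin receptor of migrating melanoblasts, was at 216 ± 30.0 and 64.2 ± 2.38 CPM, L1CAM, a neural adhesion molecule, at 218 ± 14.2 and 86.4 ± 8.49 CPM, and SEMA3B at 18.4 ± 2.22 and 1.87 ± 0.294 CPM. L1CAM was not called on the TPM scale. SOX2 had 0 counts in WM164 and 0.437 ± 0.0924 CPM in SKMel28, at least 3.82-fold higher there against a floor of 3 counts per library, but its level was low. The classical marker NGFR was not called.

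The mesenchymal-like list was split. Of 20 tested genes, 7 were called higher in WM164 and 5 (LOX, NT5E, FOSL1, THBS1 and CCN1) in SKMel28, and the median was 0.01. NT5E, the CD73 ectonucleotidase, was at 14.1, 17.4 and 16.4 CPM in WM164 and at 360, 339 and 354 CPM in SKMel28, 22.0 times as high in SKMel28 (log2 fold change -4.46, SE 0.08, adjusted p = 1.73e-15). LOX, a crosslinker of collagen, had 3 counts in all in WM164 and 18.4 ± 1.36 CPM in SKMel28, whereas its relative LOXL2 was at 43.5 ± 2.31 CPM in WM164 and 7.82 ± 0.898 CPM in SKMel28. WNT5A, the ligand of non-canonical WNT signaling, was 24.4 times and the N-cadherin gene CDH2 4.36 times as high in WM164 (15.3 ± 0.668 against 0.648 ± 0.228 CPM, and 131 ± 8.44 against 30.1 ± 1.19 CPM). FN1 and VIM, general mesenchymal genes that most melanoma lines express, were abundant in both lines at 9068 ± 490 and 8379 ± 278 CPM (interval of the log2 difference -0.06 to 0.29) and at 5035 ± 173 and 4040 ± 243 CPM (interval 0.16 to 0.48).

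The gene raised in the other arm of the series was at a similar level in both lines. MAFG (ENSG00000197063.11, chromosome 17 from 81918270 to 81927735) was at 24.8, 27.9 and 22.2 CPM in WM164 and at 25.2, 25 and 19.4 CPM in SKMel28. The libraries overlapped, and the log2 difference was 0.11 with an interval of -0.14 to 0.36. MAFG is a small MAF protein, which has no activation domain of its own and binds DNA as a partner of NRF2 (NFE2L2) and other CNC factors or of BACH1. Its paralog MAFF was 2.86 times as high in SKMel28, at 17.0, 15.1 and 16.2 CPM in WM164 and at 46.1, 47.0 and 45.2 CPM in SKMel28 (adjusted p = 3.14e-10).

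Among the larger relatives and partners of MAFG, those called higher in WM164 included MAF, MAFA, NFE2 and NFE2L3. NFE2L3 was at 31.4 ± 2.99 CPM in WM164 and 2.76 ± 0.145 CPM in SKMel28, and MAF at 59.9 ± 1.12 and 17.1 ± 1.12 CPM. MAFA was below 1 CPM in both lines. The levels of NFE2L2 (128 ± 8.56 and 163 ± 5.5 CPM, log2 difference -0.35, interval -0.49 to -0.22) and of BACH1, the repressor of its targets (32.0 ± 3.16 and 42.8 ± 1.62 CPM, -0.42, interval -0.60 to -0.24), stayed within the fold limit. Of 21 tested NRF2 target genes, 2 were called higher in WM164 and 5 in SKMel28 (HMOX1, ABCC2, PRDX1, TALDO1 and AKR1C2). These calls were 33.3% of the list, near the 32.1% of all tested genes. HMOX1, the heme oxygenase that BACH1 represses, was at 9.04, 6.94 and 7.58 CPM in WM164 and at 37.2, 33.1 and 35.1 CPM in SKMel28, 4.48 times as high in SKMel28 (adjusted p = 1.37e-10). The ferritin heavy chain FTH1 was 2.45 times as high in WM164 (2112 ± 242 against 862 ± 72.8 CPM), a call not met on the TPM scale. FTH1 has many processed pseudogenes and lies opposite BEST1, so its count is uncertain.

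**Figure D3:**
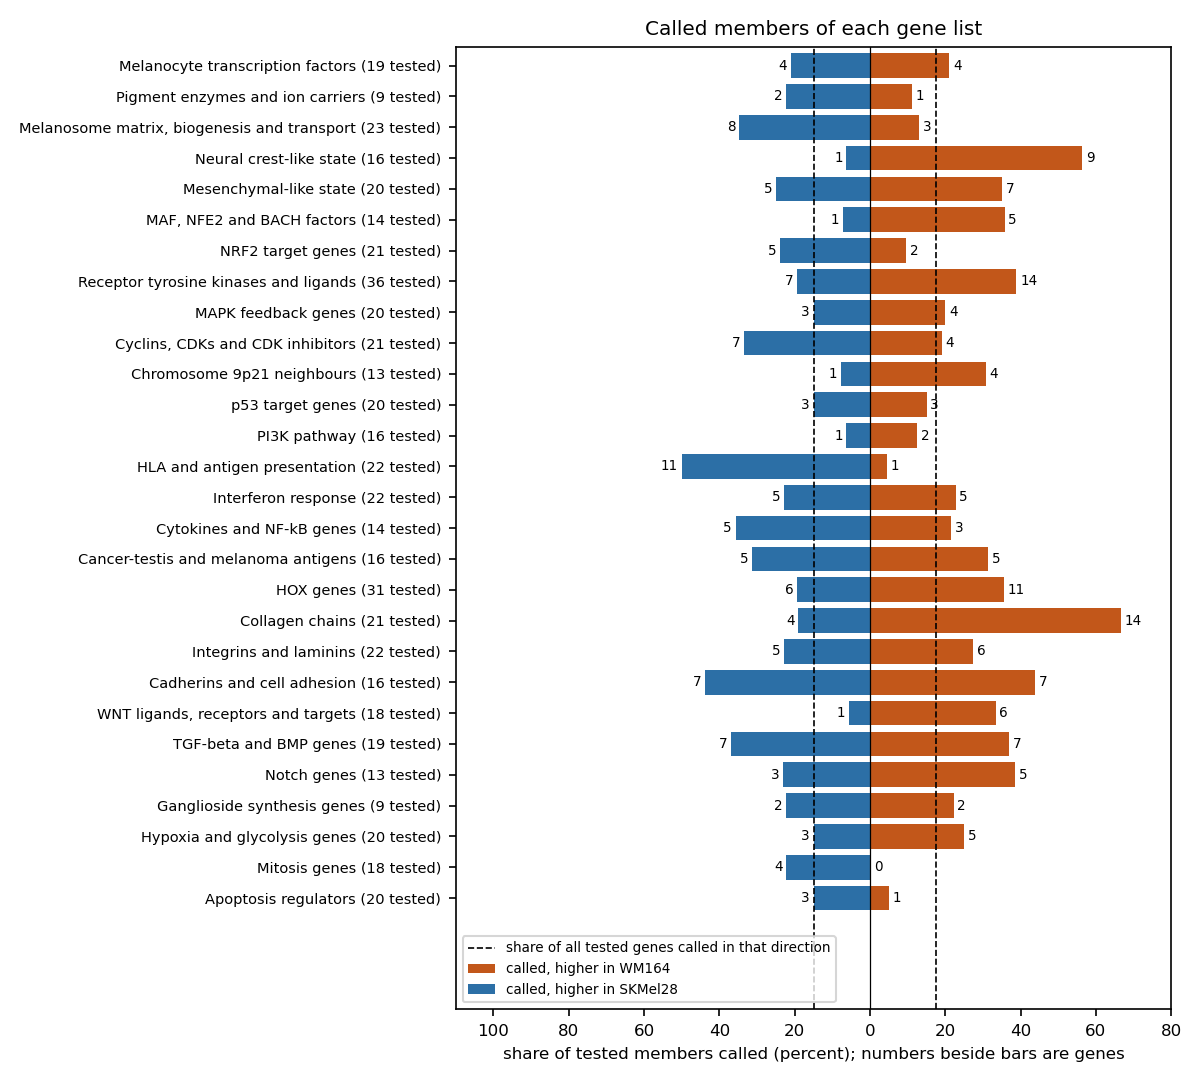
Share of the tested members of 28 gene lists, without the markers of other cell types, that were called higher in WM164 (right, orange) or in SKMel28 (left, blue), in percent, with the number of genes beside each bar and dashed lines at the shares over all tested genes, 17.4% and 14.8%. Among the lists drawn, the collagen and neural crest-like lists reach farthest to the right, with 14 and 9 genes, and the HLA list farthest to the left, with 11 genes.

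Of 36 tested receptor tyrosine kinases and ligands, 14 were called higher in WM164 and 7 in SKMel28. These calls were 58.3% of the list, against 32.1% of all tested genes, and the list median was 0.33. EPHA3, an ephrin receptor of embryonic tissue, was at 326, 384 and 353 CPM in WM164 and at 7.05, 7.69 and 6.71 CPM in SKMel28, 49.8 times as high in WM164 (log2 fold change 5.64, SE 0.09, adjusted p = 5.59e-16). FGFR1 was at 63.3 ± 3.33 and 6.35 ± 0.655 CPM, the collagen receptor DDR1 at 16.1 ± 1.05 and 0.761 ± 0.169 CPM, and the ligand PDGFA at 10.2 ± 0.982 and 0.257 ± 0.227 CPM. SKMel28 instead had MET, the receptor of hepatocyte growth factor, at 64.7, 61.9 and 62.4 CPM against 9.35, 9.87 and 10.8 CPM in WM164, a 6.31-fold difference. The ligand NRG1 was at 0.252 ± 0.377 and 6.49 ± 0.288 CPM and the receptor EPHA5 at 3.5 ± 0.34 and 13.4 ± 3 CPM, both higher in SKMel28.

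Of 20 tested genes of the MAPK feedback list, which also holds other ERK-induced genes, 4 were called higher in WM164 and 3 in SKMel28. These calls were 35% of the list, near the 32.1% of all tested genes. SPRY4, a Sprouty inhibitor of receptor signaling, was at 643, 681 and 630 CPM in WM164 and at 133, 153 and 141 CPM in SKMel28 (4.57-fold), SPRY2 was 3.08 times and the ETS factor ETV4 2.5 times as high in WM164, and PHLDB2 2.78 times. The last pair was not called on the TPM scale. FOSL1, the AP-1 subunit FRA1, was 6.74 times as high in SKMel28 (28.9 ± 2.36 against 195 ± 9.25 CPM) and CCND1, which encodes cyclin D1, 2.14 times (388 ± 2.97 against 829 ± 19.7 CPM). EPHA4 was at 0.346, 0.546 and 0.343 CPM in WM164 and at 25.8, 25.9 and 26.6 CPM in SKMel28, a pattern opposite to that of EPHA3. MYC was at 269 ± 11.6 and 251 ± 3.53 CPM, with an interval of the log2 difference of -0.02 to 0.22.

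Cell cycle genes differed in inhibitors and cyclins. CDKN2A (ENSG00000147889.17, chromosome 9 from 21967752 to 21995301), which encodes the CDK4 inhibitor p16 and ARF, was expressed in both lines, at 285, 235 and 256 CPM in WM164 and at 79.9, 68.2 and 79.0 CPM in SKMel28, 3.41 times as high in WM164 (adjusted p = 3.84e-11). Its neighbour CDKN2B was 2.31 times and CDKN1B, the p27 inhibitor, 2.45 times as high in WM164, calls not met on the TPM scale. Around them on 9p21, DMRTA1 and CAAP1 were also called higher in WM164, CAAP1 not without WM164 replicate 1 (0.99) or SKMel28 replicate 2 (0.98), and HACD4, an enzyme of fatty acid elongation, had 0 counts in WM164 and 5.33 ± 0.21 CPM in SKMel28, at least 46.6-fold higher. Of 21 tested cyclins, CDKs and inhibitors, 7 were called higher in SKMel28, among them CCND3 (16.5 ± 2.25 against 46.7 ± 2.88 CPM), CCNE2 (3.45 ± 0.738 against 16.5 ± 1.08 CPM) and CDKN2D (4.04 ± 0.56 against 9.77 ± 1.21 CPM). CDK4 overlapped between the lines at 40.2 ± 1.23 and 43.0 ± 3.79 CPM (interval -0.27 to 0.07).

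The called mitosis genes were all higher in SKMel28. Of 18 tested, 4 were called and 16 had a log2 fold change below 0, with a median of -0.68. The calls were 22.2% of the list, a lower share than the 32.1% of all tested genes. The called genes were the kinetochore protein CENPF (554 ± 36.4 and 1209 ± 43.9 CPM), the spindle protein ASPM (179 ± 13.9 and 383 ± 13.8 CPM) and the kinases AURKA (51.9 ± 3.93 and 122 ± 9.33 CPM) and TTK (18.6 ± 2.13 and 41.9 ± 2.76 CPM), 2.14 to 2.35 times as high in SKMel28. TTK and ASPM fell under the limit when trends on transcript length and GC content were removed, at -0.98 and -0.92. CENPF fell under it with TPM centred on the library median (-0.86).

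Survival genes were mixed. The p53 targets had 3 genes called each way of 20 tested, which is 30% and near the 32.1% of all tested genes. The cytokine GDF15 was at 79.8, 71.6 and 64.7 CPM in WM164 and at 8.18, 8.73 and 8.51 CPM in SKMel28 (8.52-fold), FDXR was 3.30 times as high in WM164 and BTG2, at lower counts, was also called there, whereas TP53INP1 had 0 counts in WM164 and 12.8 ± 1.72 CPM in SKMel28, at least 112-fold higher, AEN was 6.76 times as high in SKMel28 and PLK3 3.70 times. Of the PI3K pathway, PIK3CB, a catalytic subunit of the kinase, was 2.15 times as high in SKMel28, a call lost with length and GC trends removed (-0.97). Of 20 tested apoptosis regulators, 1 was called higher in WM164 and 3 in SKMel28, which is 20% and below the 32.1% of all tested genes. BCL2A1, an anti-apoptotic gene under MITF control in melanoma, was at 14.6 ± 1.49 and 43.7 ± 2.18 CPM and CASP8 at 32.3 ± 3.52 and 86.6 ± 6.23 CPM. BCL2 was also called higher in SKMel28 (10.4 ± 0.922 against 21.8 ± 3.44 CPM), though not without WM164 replicate 1 (-0.99) or SKMel28 replicate 2 (-0.95), and the pro-apoptotic BMF was 4.46 times as high in WM164.

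The MHC class II pathway was present in SKMel28 and nearly missing in WM164. These genes, which present extracellular peptides and are switched on by CIITA, are typical of immune cells and are also found in a subset of melanomas. The HLA and antigen presentation list had 22 tested genes, 1 called higher in WM164 and 11 in SKMel28, with a median of -0.91. These calls were 54.5% of the list, against 32.1% of all tested genes. Its class II part was set apart by name after values were seen. All 8 tested genes of that part were called higher in SKMel28, with a median of -5.69. HLA-DRA (ENSG00000204287.14, chromosome 6 from 32439878 to 32445046) had 0 counts in all WM164 libraries and was at 34.5, 29.8 and 34.8 CPM in SKMel28, at least 289-fold higher. The invariant chain CD74 was at 2.15, 1.8 and 1.18 CPM in WM164 and at 216, 193 and 214 CPM in SKMel28, 120 times as high (adjusted p = 1.24e-15), and HLA-DPA1 at 0.589 ± 0.172 and 43.0 ± 6.08 CPM. CIITA was at 1.88 ± 0.0741 CPM in WM164 and 9.60 ± 0.792 CPM in SKMel28, a call not met with TPM centred on the library median (-0.59). Of the 8 immune cell markers, 5 were at the floor in both lines, PTPRC and CD3E among them, and the 2 that were tested were called in opposite directions. CD68 moved with the class II genes, 125 ± 7.79 CPM in WM164 against 344 ± 39.2 CPM in SKMel28, and its summed list was at 120 to 135 and at 301 to 378 CPM. Their part in the class II result was not tested. HLA-DPA1 and HLA-DPB1 overlap on opposite strands, and HLA genes are polymorphic, so reads may align differently by allele.

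Class I genes went in both directions, with 1 of 14 tested members called higher in WM164 and 3 in SKMel28, among them HLA-F and ERAP2. The calls were 28.6% of the members, near the 32.1% of all tested genes. HLA-C was at 303, 316 and 288 CPM in WM164 and at 74.9, 69.2 and 78.9 CPM in SKMel28 (4.06-fold), HLA-F was 10.5 times as high in SKMel28, and HLA-B was at 67.1 ± 2.5 and 56.6 ± 6.38 CPM (interval of the log2 difference 0.08 to 0.41). B2M, the shared light chain, was at 281 ± 11.1 and 155 ± 7.98 CPM (0.86, interval 0.73 to 0.99).

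Interferon response genes were divided, with 5 of 22 called each way. OAS2, a sensor of double-stranded RNA, was 70.9 times as high in SKMel28 (0.476 ± 0.279 against 34.1 ± 3.27 CPM), IFI44 4.51 times and IFI6 2.21 times. ISG15 (15.6 ± 0.654 against 3.75 ± 0.512 CPM), IFIT3 (31.8 ± 4.18 against 11.2 ± 1.90 CPM), IFIT1 (6.02 ± 0.579 against 1.83 ± 0.591 CPM) and the DNA-sensing adaptor STING1 (27.3 ± 2.78 against 7.23 ± 1.40 CPM) were higher in WM164. MX1 and MX2, paralogs with low counts, were called in opposite directions.

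Of 14 tested cytokine and NF-kB genes, LIF, TRAF1 and CSF1 were called higher in WM164 and CXCL8, CXCL1, IL1B, IL24 and TNFAIP3 in SKMel28, most of them at low levels. CXCL8 and CXCL1, neutrophil chemokines, were at 0.498 ± 0.325 and 0.0651 ± 0.0846 CPM in WM164 and at 6.25 ± 0.43 and 5.55 ± 0.166 CPM in SKMel28. TNFAIP3, the A20 inhibitor of NF-kB, was 4.45 times as high in SKMel28 (8.09 ± 0.745 against 36.1 ± 1.47 CPM), while LIF (23.8 ± 1.05 against 10.6 ± 1.23 CPM) and TRAF1 (8.99 ± 0.333 against 1.96 ± 0.60 CPM) were higher in WM164.

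**Figure D4:**
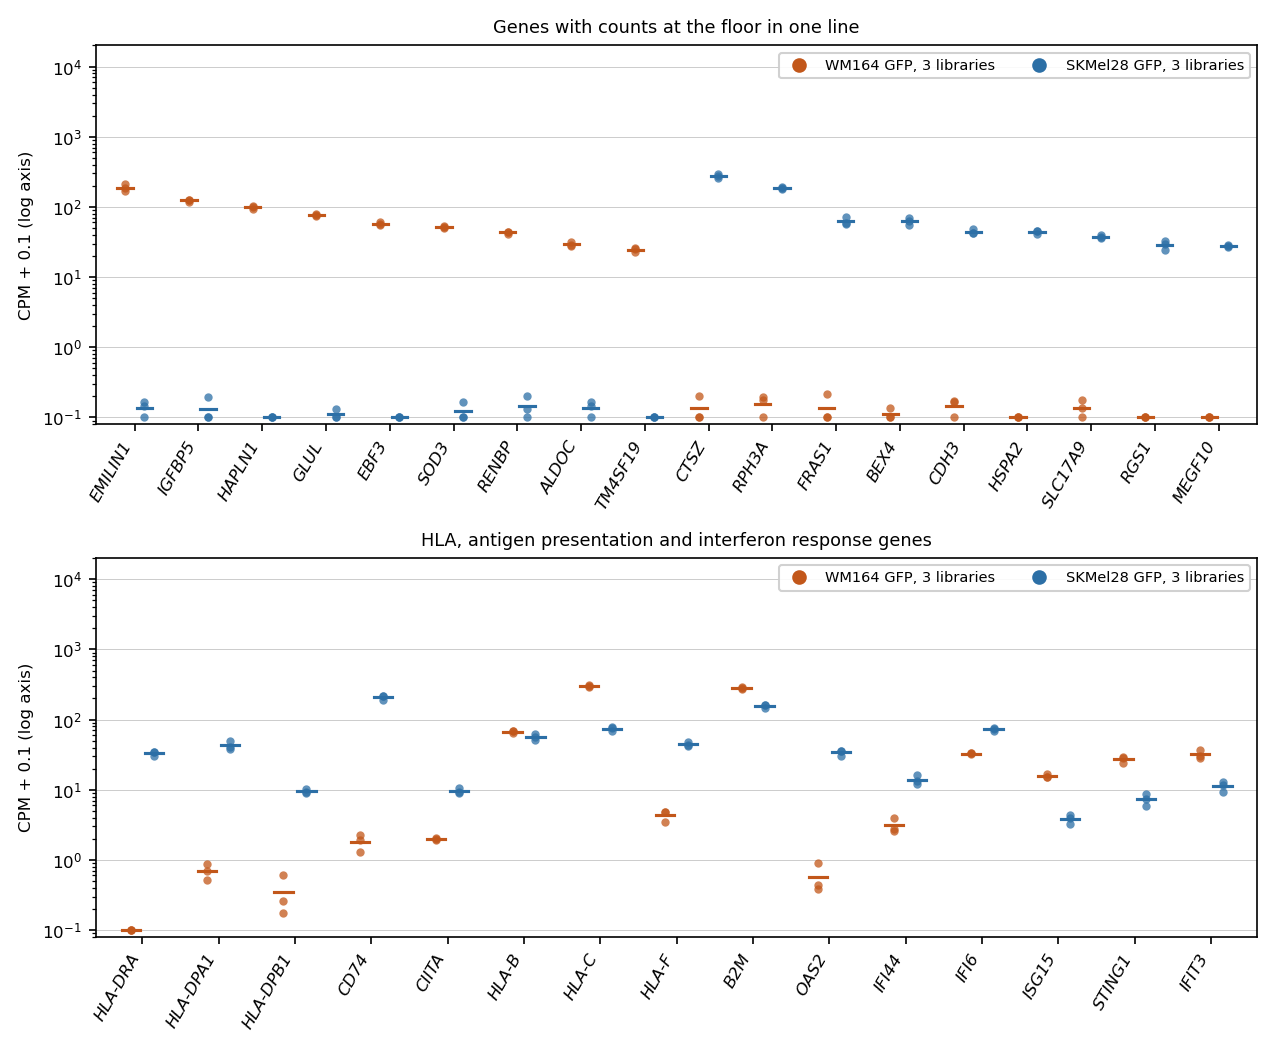
CPM + 0.1 on a log axis of genes at the floor of 3 counts in a line (upper panel) and of HLA, antigen presentation and interferon response genes (lower panel), in the 3 WM164 GFP libraries (orange) and the 3 SKMel28 GFP libraries (blue), with a bar at the mean of each line. HLA-DRA is at 0 in WM164 and near 33.1 CPM in SKMel28, and the genes of the upper panel are separated by their selection.

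The list of cancer-testis and melanoma antigens, in large part germline genes of X-linked families that tumors re-express, had 5 genes called each way of 16 tested, MAGEA1, MAGEB2, GAGE1, PRAME and BCAN higher in WM164 and MAGEA3, MAGEA4, MAGEA6, MAGEA10 and MAGEC1 in SKMel28. MAGEC1 had 4 counts in all in WM164 and 27.1 ± 0.474 CPM in SKMel28, MAGEA4 was at 0.316 ± 0.0568 and 5.65 ± 0.51 CPM, and MAGEA3 and MAGEA6 were 3.01 and 3.54 times as high in SKMel28. These MAGE genes are close paralogs and their split of reads is uncertain. PRAME was at 404, 441 and 416 CPM in WM164 and at 204, 199 and 194 CPM in SKMel28 (2.11-fold, not called on the TPM scale), and BCAN, the brevican proteoglycan of neural tissue, was at 37.4 ± 4.81 and 0.0764 ± 0.0686 CPM. HOX genes, which record position along the body axis, were called in 17 of 31 cases, 11 higher in WM164 and 6 in SKMel28. HOXD13 was at 22.7, 23.6 and 21.1 CPM in WM164 and at 2.53, 3.73 and 2.46 CPM in SKMel28, and HOXC10 was 4.16 times as high in WM164. HOXB7 was at 0.277, 0 and 0.457 CPM in WM164 and at 14.2, 16.5 and 17.1 CPM in SKMel28, although HOXB3 and HOXB9, its neighbours in the same cluster, were 2.93 and 3.21 times as high in WM164. Overlapping annotations within the HOXB cluster make its split of reads uncertain.

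Extracellular matrix and adhesion genes held some of the widest differences. Of 21 tested collagen chains, 14 were called higher in WM164 and 4 (COL11A1, COL12A1, COL4A2 and COL5A2) in SKMel28, with a median of 1.99. COL6A1 was at 144, 137 and 119 CPM in WM164 and at 2.85, 1.51 and 2.29 CPM in SKMel28 (58.2-fold), its partner chain COL6A2 at 59.1 ± 4.97 and 3.42 ± 0.354 CPM, and the cartilage-type chain COL9A3 at 108 ± 9.26 and 0.771 ± 0.344 CPM. COL11A1 was the reverse, at 0.381, 0.225 and 0.19 CPM in WM164 and at 162, 161 and 160 CPM in SKMel28, 594 times as high in SKMel28 (log2 fold change -9.21, SE 0.12, adjusted p = 1.16e-16), while COL11A2 was 34.4 times as high in WM164. Of the fibroblast markers, 2 of 3 tested were also called higher in WM164, with a median of 3.20 over the 3 and a summed level of 22.9 to 23.5 against 11 to 12.6 CPM, and 2 of the 7 were at the floor in both lines. Their part in the collagen result was not tested. SPARC, a collagen-binding matricellular protein, was at 2004 ± 43.9 and 721 ± 53 CPM.

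Laminins and integrins were split, with 6 of 22 called higher in WM164 and 5 in SKMel28. The laminin chains LAMB1 (610 ± 32.8 against 156 ± 5.68 CPM), LAMA4 (302 ± 17.8 against 87.1 ± 6.31 CPM) and LAMA5 (69.7 ± 7.19 against 6.07 ± 1.74 CPM) were higher in WM164, and LAMA1 (123 ± 3.71 against 269 ± 12.3 CPM) in SKMel28. ITGB8, an integrin chain that activates latent TGF-beta, was at 33.8, 30.3 and 32.2 CPM in WM164 and at 416, 438 and 407 CPM in SKMel28, 13.1 times as high in SKMel28 (adjusted p = 2.03e-15). ITGA7 and ITGA9 were 9.29 and 5.71 times as high in SKMel28, and LAMA3 was the remaining call there.

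Adhesion molecules differed in kind. All but 2 of 16 tested cadherin and cell adhesion genes were called, 7 in each direction. NCAM1, the neural cell adhesion molecule, was at 76.8, 78.0 and 79.2 CPM in WM164 and had 5 counts in all in SKMel28, a ratio of 1285 (exact counting interval 550 to 3959). The protocadherin PCDH7 was 6.97 times as high in WM164 (121 ± 4.47 against 17.3 ± 1.84 CPM). CDH3, P-cadherin, had 4 counts in all in WM164 and was at 48.2, 41.8 and 42.5 CPM in SKMel28, a ratio of 959 (interval 374 to 3523). NRCAM was at 4.83 ± 0.591 and 133 ± 4.37 CPM, CEACAM1, an adhesion molecule of the carcinoembryonic antigen family, at 75.2 ± 1.61 and 505 ± 40.1 CPM, and ALCAM at 5.79 ± 1.33 and 39.7 ± 1.11 CPM.

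In the developmental pathways, 6 of 18 tested WNT genes were called higher in WM164 and only the secreted inhibitor DKK1 in SKMel28. These calls were 38.9% of the list, against 32.1% of all tested genes, and the list median was 0.20. DKK1 had 1 count in all in WM164 and was at 6.09, 3.92 and 6.25 CPM in SKMel28. The WNT feedback gene NKD1 was 11.1 times (6.12 ± 0.914 against 0.548 ± 0.0304 CPM), the co-receptor LRP6 2.23 times and TCF7 2.54 times as high in WM164, the last pair not called on the TPM scale. TGF-beta genes were called 7 each way of 19. The ligand TGFB1 was at 52.0, 49.1 and 47.5 CPM in WM164 and at 3.85, 4.06 and 3.85 CPM in SKMel28 (12.7-fold), TGFB2 was 10.8 times and the latency protein LTBP1 7.44 times as high in WM164, and the receptor TGFBR1 (81.9 ± 7.15 against 201 ± 7.44 CPM) in SKMel28. TGFBR2 was at 43.0 ± 2.96 and 48.6 ± 0.718 CPM (interval -0.33 to -0.02). Among the ID genes, targets of BMP signaling, ID4 was 8.69 times as high in WM164 and ID2 and ID3 4.28 and 3.34 times as high in SKMel28, as was the ligand BMP7 (6.16 ± 0.68 against 15.4 ± 1.48 CPM).

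Of 13 tested Notch genes, JAG1, JAG2, DLL3, DLL4 and HEY2 were called higher in WM164 and NOTCH2, DLL1 and HES1 in SKMel28. The ligand DLL3 was at 44.3, 49.0 and 46.0 CPM in WM164 and at 5.71, 3.11 and 5.12 CPM in SKMel28, and JAG1 at 49.0 ± 1.39 and 19.3 ± 0.369 CPM. The receptor NOTCH2 was at 436 ± 18.4 and 1019 ± 71.5 CPM. Of the target genes, HEY2 was 11.2 times as high in WM164 (43.4 ± 1.53 against 3.81 ± 1.06 CPM) and HES1 3.68 times in SKMel28 (11.2 ± 1.85 against 41.4 ± 1.67 CPM).

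Genes of energy metabolism were called in both directions. PPARGC1A, the PGC1-alpha coactivator of mitochondrial biogenesis that MITF can switch on in melanoma, was at 89.1, 94.5 and 101 CPM in WM164 and at 2.34, 2.78 and 3.52 CPM in SKMel28, 32.8 times as high in WM164 (log2 fold change 5.04, SE 0.12, adjusted p = 2.38e-14). HK2, the first enzyme of glycolysis, was at 57.9, 48.7 and 57.9 CPM in WM164 and at 441, 415 and 412 CPM in SKMel28 (7.71-fold), the glucose transporter SLC2A1 at 22.4 ± 1.86 and 148 ± 15.7 CPM, and LDHA at 847 ± 86.2 and 2298 ± 205 CPM. The list as a whole had 5 of 20 genes called higher in WM164, namely PPARGC1A, SLC2A3, ALDOC, ADM (19.8 ± 0.823 against 3.55 ± 0.321 CPM) and NDRG1 (61.6 ± 0.54 against 16 ± 1.44 CPM). HK2, SLC2A1 and LDHA were called higher in SKMel28, and the list median was 0.10. Calls in either direction were 40% of the list, against 32.1% of all tested genes. GAPDH, often used as a reference gene, was at 5310, 5121 and 5193 CPM in WM164 and at 2289, 2044 and 2020 CPM in SKMel28, 2.46 times as high in WM164 and not called on the TPM scale. The log2 fold changes of the 13 mitochondrially encoded protein genes ran from -0.31 to 0.82. In ganglioside synthesis, ST8SIA5 and B4GALNT1 were called higher in WM164 at low counts and UGCG and UGT8 in SKMel28. UGCG, the glucosylceramide synthase, was 3.14 times as high in SKMel28 (29.3 ± 3.52 against 92.0 ± 7.70 CPM), and ST8SIA1, the GD3 synthase, was at 46.4 ± 2.41 and 54.3 ± 2.08 CPM (interval of the log2 difference -0.37 to -0.08).

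Some genes were present in a line and at the floor in the other. Taking genes that never passed 3 counts in a line (0.114 CPM in the shallowest WM164 library and 0.142 CPM in that of SKMel28) and at least 5 CPM in every library of the other, 48 genes were found only in WM164, 44 of them protein-coding, and 66 only in SKMel28, 48 of them protein-coding. At 1 CPM the numbers were 151 and 201, and at 10 CPM 22 and 40. Of these genes, 17 of the 48 and 19 of the 66 also had a mean of 5 CPM or more over the 3 A375 GFP libraries. In cells with MAFG, 32 of the 48 were still at the floor in SKMel28 and 55 of the 66 in WM164.

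Those with the highest levels in WM164 included matrix proteins. EMILIN1 (ENSG00000138080.13, chromosome 2 from 27078615 to 27086403), an elastic fiber protein, was at 211, 184 and 166 CPM in WM164 and had 3 counts in all in SKMel28, a ratio of 5163 (exact counting interval 1766 to 25038). IGFBP5, an IGF-binding protein, was at 124 ± 4.82 CPM with 2 counts in SKMel28 (ratio 5129, interval 1420 to 42360), and GLUL, the glutamine synthetase, at 76.9 ± 1.70 CPM with 1 count. HAPLN1, a link protein of hyaluronan matrix, was at 94.3, 101 and 103 CPM against 0 counts, at least 702-fold higher, and the neuronal transcription factor EBF3 at 57.7 ± 2.68 CPM against 0 counts, at least 408-fold. The antioxidant SOD3, the epimerase RENBP, the aldolase ALDOC and the tetraspanin-like TM4SF19 followed at 51.3 ± 1.57, 43.1 ± 1.55, 29.2 ± 1.79 and 24.5 ± 1.38 CPM. The histone gene HIST1H4L (46.7 ± 8.54 CPM against 0 counts) is 1 of many near-identical copies.

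CTSZ (ENSG00000101160.14, chromosome 20 from 58985686 to 59008238), a lysosomal cathepsin, was at 294, 256 and 275 CPM in SKMel28 and had 3 counts in all in WM164, a ratio of 7975 (interval 2728 to 38673). CTSZ lies opposite NELFCD. RPH3A, a RAB3 effector of synaptic vesicles, was at 187 ± 4.97 CPM with 5 counts in WM164 (ratio 3245, interval 1390 to 9996), the basement membrane protein FRAS1 at 62.6 ± 8.23 CPM, the X-linked BEX4 at 62.6 ± 7.09 CPM and the vesicular nucleotide transporter SLC17A9 at 37.5 ± 2.11 CPM. With 0 counts in all WM164 libraries, the chaperone HSPA2 was at 45.1, 40.4 and 45.9 CPM in SKMel28 (at least 383-fold), the G protein regulator RGS1 at 28.8 ± 4.45 CPM (252-fold), MEGF10 at 27.5 ± 0.69 CPM (241-fold), the serotonin receptor HTR2B at 23.8 ± 1.62 CPM (208-fold) and the glutamine transporter SLC38A1 at 22.5 ± 2.90 CPM (197-fold).

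Other genes of large difference had more than 3 counts in a library of the lower line. SERPINA3 (ENSG00000196136.17, chromosome 14 from 94612384 to 94624055), a secreted inhibitor of serine proteases, was at 1596, 1662 and 1453 CPM in WM164 and at 1.31, 1.09 and 0.93 CPM in SKMel28, 1403 times as high in WM164 (log2 fold change 10.45, SE 0.12, adjusted p = 5.87e-17). AEBP1, a collagen-binding protein, was at 419, 449 and 390 CPM in WM164 and had 6 counts in SKMel28, all in replicate 3. In the other direction, the actin-severing SCIN was at 203 ± 16 CPM in SKMel28 and the giant sarcomere gene TTN at 177, 327 and 216 CPM, against 5 and 7 counts in WM164. The spread of TTN in SKMel28 was wide, with replicate 2 highest.

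Beside SERPINA3, the following abundant genes were called. The prion protein gene PRNP was at 304, 305 and 302 CPM in WM164 and at 1961, 1831 and 2051 CPM in SKMel28 (6.41-fold), the lysosomal protease CTSD at 289 ± 24.4 and 1342 ± 51.1 CPM, the scaffold IQGAP1 at 384 ± 5.07 and 1193 ± 26.4 CPM, and AHNAK at 556 ± 30.0 and 1390 ± 162 CPM. DYNC1H1, the dynein heavy chain, was 2.01 times as high in SKMel28, a call lost without WM164 replicate 3 (-0.98) or SKMel28 replicate 2 (-0.97). P4HB, a folding enzyme of collagen secretion, was at 1613 ± 11.9 and 630 ± 28.0 CPM. RPL10 and RPS2, ribosomal protein genes, were 2.08 and 2.19 times as high in WM164, not called on the TPM scale nor with length and GC trends removed. Over 78 tested ribosomal protein genes, a group chosen after values were seen, 20 were called higher in WM164 and 1 in SKMel28, with a median of 0.65, and many of them have processed pseudogenes.

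Differences also ran in stretches of the genome. The median log2 fold change was computed in 265 windows of 10 Mb with at least 20 tested genes, and the middle 50% of window medians lay between -0.31 and 0.19. The lowest was chromosome 19 from 20 to 30 Mb, at -2.04, where 35 of 47 genes were called higher in SKMel28 and 1 in WM164. It holds a cluster of KRAB zinc finger genes, 18 of 22 ZNF genes there being called higher in SKMel28, such as ZNF91 (15.9 ± 0.548 against 55.1 ± 8.85 CPM) and ZNF43 (5.98 ± 0.145 against 39.4 ± 3.12 CPM). The paralogs of this cluster share sequence, which makes their split of reads uncertain. Chromosome 18 followed, with -1.20 from 0 to 10 Mb, where LAMA1 and SMCHD1 (55.9 ± 3.96 against 137 ± 5.07 CPM) lie, and -1.10 from 10 to 20 Mb. Over the whole of chromosome 18 the median was -0.73, with 37.7% of genes called higher in SKMel28, but -0.37 in the MAFG libraries, where its window from 60 to 70 Mb turned from -1 to 0.23.

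The highest window was chromosome 11 from 70 to 80 Mb at 1.55, with 65 of 89 genes called higher in WM164. Here NUMA1, a spindle pole protein, was at 1003 ± 29.2 and 197 ± 9.39 CPM and RPS3 at 733 ± 13.3 and 196 ± 15.3 CPM. Chromosome 13 from 70 to 80 Mb, with EDNRB, was at 1.42, and chromosome 7 from 70 to 80 Mb, with the heat shock protein gene HSPB1 (710 ± 33.8 against 72.0 ± 7.36 CPM) and MDH2 (204 ± 18.9 against 67.5 ± 5.20 CPM), at 1.33. The genes in these windows were named after their values were seen. In the MAFG libraries of the same lines the 6 windows were at -2.21, -0.95, -1.05, 1.42, 0.82 and 1.36, in the order given here, and all 6 kept their sign. On the log2(TPM + 1) scale they were at -1.39, -1.36, -1.40, 0.88, 0.47 and 0.52, the last 3 moved by over 1.5 times.

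**Figure D5:**
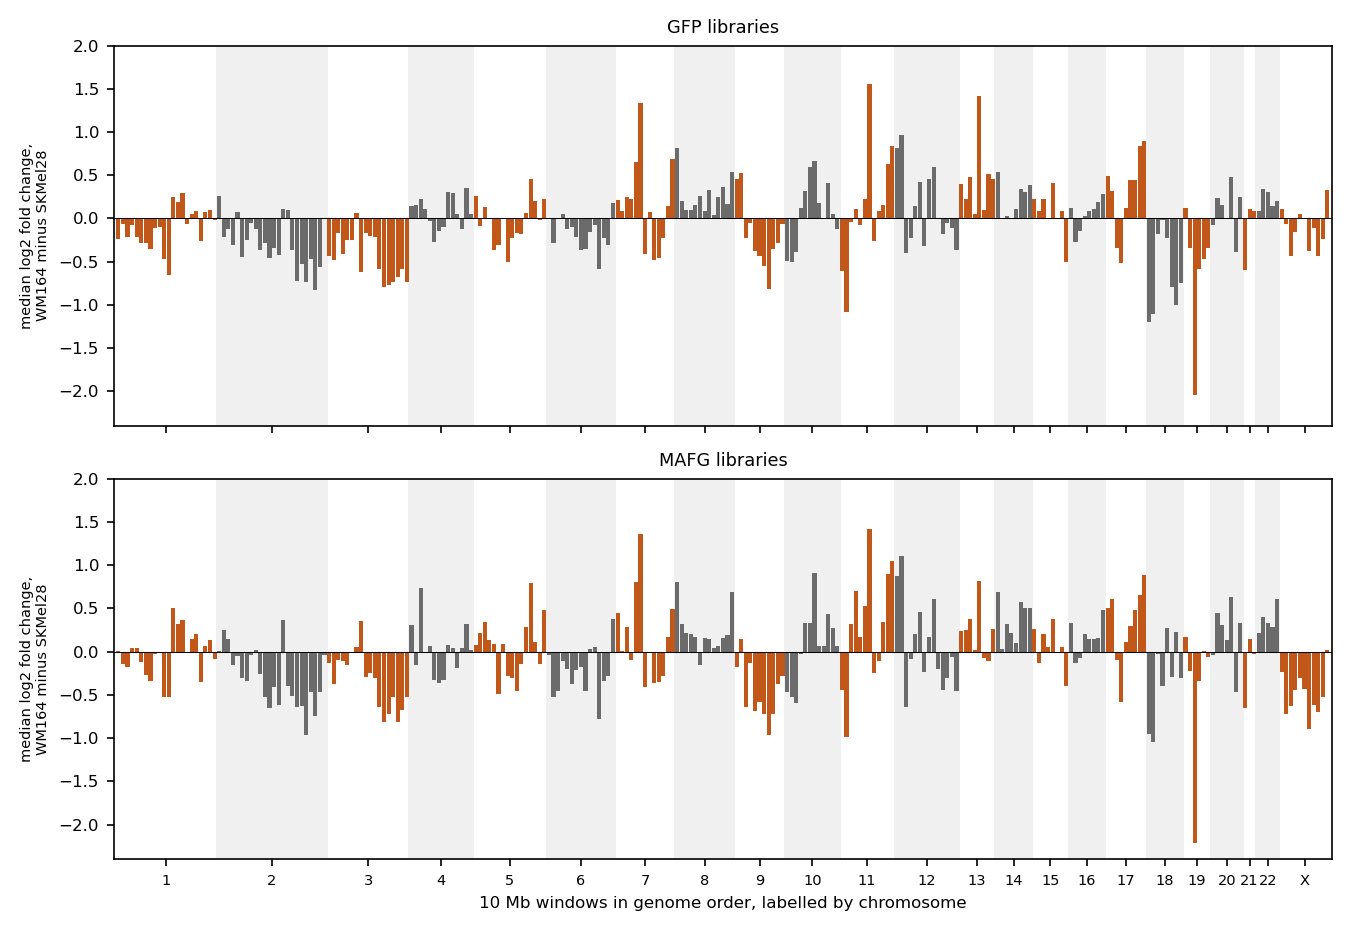
Median log2 fold change of WM164 minus SKMel28 in windows of 10 Mb with at least 20 tested genes, in genome order by chromosome, in the GFP libraries (upper panel) and in the MAFG libraries (lower panel), with colors alternating by chromosome. The lowest bar in both panels is on chromosome 19, at -2.04 and -2.21, and the highest is on chromosome 11, at 1.55 and 1.42.

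The same line contrast was then tested gene by gene in the MAFG-overexpressing libraries, none of which entered the GFP contrast. There 5823 of 16292 tested genes (35.7%) were called, 3356 higher in WM164 and 2467 in SKMel28. Of 15647 genes tested in both, 3857 were called in the same direction in both, which is 78.4% of the 4920 calls in GFP cells and 71.3% of the 5412 calls in MAFG cells, and 36 were called in opposite directions. Across these genes, which are not independent replicates, the log2 fold changes of the contrasts correlated at 0.906 (Pearson). With MAFG, TYRP1 was at 0.0231 ± 0.04 CPM in WM164 and 67.9 ± 1.5 CPM in SKMel28, and OCA2 at 0.115 ± 0.0733 and 41.8 ± 1.26 CPM. HLA-DRA was at 0.126 ± 0.191 and 72.9 ± 4.87 CPM and CD74 at 4.28 ± 0.563 and 469 ± 39.5 CPM. All 4 genes were called in the same direction as in GFP cells.

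Some melanocyte genes changed their line difference, among them TYR, at 45.1 ± 5.16 CPM in WM164 and 135 ± 2.16 CPM in SKMel28 with MAFG (-1.59 against -0.26 with GFP). MLANA went from -0.61 in GFP cells to -3.06 in MAFG cells, at 58.7 ± 1.75 CPM in WM164 and 490 ± 12.3 CPM in SKMel28 with MAFG, a difference between the contrasts of -2.46 (adjusted p = 1.35e-13, edgeR interaction test over 12 libraries). DCT, higher in WM164 with GFP, was at 419 ± 35.0 CPM in WM164 and 620 ± 28.5 CPM in SKMel28 with MAFG (-0.57), and SOX9 was at 0.0924 ± 0.0552 and 0.466 ± 0.0283 CPM with MAFG, against 7.24 and 0.26 CPM with GFP. Over all genes, 1221 of 17338 (7.04%) passed the interaction test at the same limits.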

How the data were processed

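RNA-seq of WM164 and SKMel28 cells with GFP (3 libraries each) was compared, and the MAFG libraries of both lines served for a second contrast. The submitters' processing notes name cutadapt 1.8.1, STAR 2.7.7a, RSEM 1.3.0 and the build GRCh38. The authors deposited whole-number counts per gene for 58870 genes, without normalization, and TPM values, scaled by length and to a common sum. The labels name a kit without strand while the methods describe one with strand, and use of strand in counting is not given in the sources used here. Counts were normalized by TMM over the 6 libraries, filtered with filterByExpr and tested with edgeR 4.0.16 (quasi-likelihood, Benjamini-Hochberg over all tested genes, R 4.3.3). CPM of MAFG cells came from a separate TMM over the 6 MAFG libraries, so they are not on a common scale with those of GFP cells. The interaction test used a joint TMM over 12 libraries. Folds are given as fitted, as ratios of pooled counts with exact 95% intervals where a line had few counts, or as bounds against a floor of 3 counts per library where it had 0, and exact intervals and floors cover counting error only. TPM values were tested with limma 3.58.1 as log2(TPM + 1) or log2(TPM + 0.1). Positions came from GENCODE 44, which held 58472 of the identifiers, and promoters from RefSeq.

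Lists of known genes (32) and the rule for named genes were chosen with earlier results of these data known. The rule took all genes of the transcription factor, pigment, melanosome and MAF lists, the 12 largest and the 8 most abundant called protein-coding genes per direction, the 10 most abundant genes found in a single line, up to 4 called genes per direction of the other lists, and the 3 most extreme windows per direction. Genes that complete a count of 5 or fewer, the ribosomal group and genes inside windows were decided after values were seen. So was the split of the HLA list into class II and class I parts. Chromosome Y and XIST were left out of named genes, and a few other genes are not reported here. On simulated counts of 15806 genes, edgeR and DESeq2 recovered 199 and limma 196 of 200 changed genes, with 8, 7 and 2 false calls. The changed genes were balanced in direction, and limma ran there on log2(CPM + 1). The simulation thus does not cover a contrast with 32.1% of genes called, nor the TPM scale. Alternatives were DESeq2 1.42.0, other filters and scalings, a block for the replicate number, a model of all 18 libraries, TPM, a test against a fold change of 2, and each library left out. Figures were drawn with matplotlib 3.10.9.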

Additional observations from a re-analysis of the deposited data

Results flagged for a closer look

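For 44 of the 218 genes named in the text, the difference between the lines itself changed with MAFG, with a change of the log2 fold change above 1 that passed an adjusted p of 0.05 (edgeR interaction test over the 12 GFP and MAFG libraries of both lines). Of all genes tested so, 7.04% passed. The values below are the line difference in MAFG cells minus that in GFP cells, so a negative value means that WM164 moved down relative to SKMel28. SOX2, MAFA, MAGEC1, CDH3, DKK1, HAPLN1, IGFBP5 and SLC38A1 were at the floor in a line with GFP, so the size of their change depends on the prior count and is no bound. SOX9 (0.0924 ± 0.0552 CPM), HLA-DPB1 (0.0436 ± 0.0754 CPM) and CXCL8 (0.113 ± 0.142 CPM) were near 0 in WM164 with MAFG. The size of their change is therefore uncertain too.

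Among melanocyte genes the change was below 0 for the 7 pigment and melanosome genes given first. The change was -1.34 for TYR, -1.59 for DCT, -2.46 for MLANA, -1.92 for GPR143, -1.95 for TRPM1, -1.84 for CAPN3 and -1.08 for TSPAN10. SOX9 changed by -7.10, against 1.23 for TFAP2C, 1.05 for ZEB1 and 1.05 for ETV1. The neural crest-like gene SOX2 changed by 4.47 and MAFA by 4.87.

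Among matrix and adhesion genes the change had either sign. The change was 1.02 for COL6A1, 1.95 for COL6A2, 1.15 for COL11A1, 3.23 for COL12A1, 2.23 for ITGA9, 1.11 for LAMA5, 2.71 for CDH3 and 2.03 for NRCAM, against -3.32 for HAPLN1, -3.47 for IGFBP5 and -1.21 for SERPINA3. HAPLN1 was at 99.4 CPM with GFP and 393 CPM with MAFG in WM164, and at 0 and 0.167 CPM in SKMel28. Levels with GFP and with MAFG were scaled by TMM separately. COL12A1 turned from 6.13 CPM in SKMel28 and 1.47 in WM164 with GFP to 24.5 ± 3.22 and 56.0 ± 3.28 CPM with MAFG.

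Signaling genes changed by 2.15 (DDR1), 2.62 (NRG1), -1.03 (EPHA5), -1.20 (PHLDB2), 3.81 (DKK1), 1.38 (TGFB1), 1.22 (ID4), 1.74 (BMP7) and 1 (JAG1). Immune genes changed by -1.34 (HLA-DPA1), -3.22 (HLA-DPB1), 1.88 (STING1), -1.67 (IFIT1), -2.60 (CXCL8) and 2.73 (TRAF1). The remaining genes were MAGEC1 (3.02), DMRTA1 (1.31), SLC2A1 (1.37), SLC38A1 (6) and AHNAK (1.27).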

How the results depend on the processing

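No called gene of the text changed direction under any alternative, and all 218 genes kept their direction and call with DESeq2, its size factors used in edgeR, genes unfiltered, all 18 libraries in a model and the replicate block. The 5190 calls became 3229 with at least 10 counts in every library (1781 higher in WM164, 1448 higher in SKMel28) and 11277 with no limit on the fold change (5588 and 5689). Calls higher in WM164 were 681 for log2(TPM + 1), 691 without a filter and 924 for log2(TPM + 0.1), the last with 3887 higher in SKMel28. With TPM libraries centred on their median, an alternative added after seeing the data, 2559 genes were called (1460 and 1099). MITF, ZEB2, PMEL and MLANA became called on the TPM scales, where 24 to 39 of the 218 genes lost their call. After centring 15 lost it (DCT, GPR143, HPS5, BLOC1S3, EPHA5, CDKN2D, CAAP1, DMRTA1, CENPF, BCL2, CIITA, LIF, COL12A1, TCF7 and BMP7), and with length and GC trends removed, the other addition, 9 did (HPS5, TSPAN10, PIK3CB, TTK, ASPM, LIF, PRAME, RPL10 and RPS2) and B2M was called.

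Genes without a call changed sign on the TPM scales, with values of -0.40 and -0.41 for GPNMB, -0.64 for FN1 (-0.13 after centring), -0.26 for VIM, -0.35 and -0.44 for MAFG (-0.11 with length and GC trends removed), -0.50 and -0.51 for MYC, and -0.32 and -0.33 for HLA-B. Genes found only in a line numbered 151 and 201 at 1 CPM and 22 and 40 at 10 CPM.

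Leaving out a library gave 5278 to 5371 calls (2765 to 3007 higher in WM164, 2364 to 2522 higher in SKMel28), and 5807 to 6027 for the MAFG contrast. The call was lost for 6 genes, DCT, GPR143, CAAP1, BCL2, DYNC1H1 and KRT10, the last at -0.90 without WM164 replicate 2 and -0.99 without SKMel28 replicate 3. Same-numbered libraries correlated at 0.0443, 0.0649 and 0.0927 in their deviations, each best with its own number, a hint from the data and not the design, so the numbers were not taken as pairs. With the replicate number as a block there were 5092 calls (5672 for the MAFG contrast). Depth limits genes under the floor of 3 counts, and 686 calls had a line there.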
